A study of Rattus norvegicus with 9 samples.

Results

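Short tRNA fragments were the tags assigned to the Rfam families tRNA or tRNA-Sec with a length of 15 to 32 nt, each weighted by its read count. A tag is 1 distinct read sequence of a library. There were 19253 such tags of 485728 tags of all kinds in the 9 libraries, and they held 2595249 of 27400846 tRNA reads, which is 9.47% over the pooled libraries. The other 49170 tRNA tags were 33 nt or longer. No assigned tRNA tag was shorter than 20 nt, so the members in effect ran from 20 to 32 nt.

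The study sequenced small RNA of exosomes, small vesicles that cells release, from primary rat peritoneal macrophages. The cells came by lavage from untreated rat and were kept in medium with 10% fetal bovine serum. Control cells had 0.1% DMSO for 24 h. LPS cells had lipopolysaccharide, a component of the bacterial outer membrane, at 100 ng/ml for 6 h. LPS+AS-IV cells first had 150 µM astragaloside IV, a plant saponin from the genus Astragalus, during 24 h, and then LPS. Both agents were dissolved in DMSO, but the labels state its final amount and time for Control alone. Each group had 3 libraries, numbered as in the labels, and 3 values for a group stand in the order of replicates 1, 2 and 3. The labels do not say that these came from separate animals or cultures, so a p-value measures only the spread between these libraries, which may be technical. Neither strain, sex nor age of the rat is given in the labels.

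A tRNA carries an amino acid to the ribosome and folds into an acceptor stem and 3 hairpin arms, the D arm, the anticodon arm and the T arm. Enzymes such as angiogenin cut it in the anticodon loop into longer fragments, while cuts in the D or T arm leave shorter ones. Mature tRNAs end in CCA, which in nuclear genes of animals is added after transcription and is absent from the gene. For a tRNA of such a gene, a fragment with CCA at its end therefore comes from the 3′ end of a finished tRNA. Extracellular vesicles and serum are both known to carry many tRNA fragments.

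Few of the 19253 tags could be placed on rat sequence, because only stretches of 8 RefSeq rat tRNA genes lay in the promoter sequences used here (assembly GRCr8), 3 of them whole. Of the members, 20 tags matched those stretches. The gene with the most matching tags, 11, was Trnag-gcc2, a tRNA-Gly gene with 71 bases on chromosome 10 from 54322802 to 54322872, read on the minus strand, and inside the promoter window of Hes7. The gene is shown here 5′ to 3′ because it shows where short 5′ fragments end, and the capitals mark its bases 1 to 32, the longest length a member could have.
Trnag-gcc2: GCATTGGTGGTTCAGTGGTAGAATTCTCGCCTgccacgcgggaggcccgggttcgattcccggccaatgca
The tags below match that gene and differ only in where they stop. RefSeq lists 22 rat tRNA-Gly genes with anticodon GCC, so a match does not assign a tag to this copy. Capitals mark the 18 letters that define a shared start.
Gly 32 nt: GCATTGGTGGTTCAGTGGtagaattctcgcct
Gly 30 nt: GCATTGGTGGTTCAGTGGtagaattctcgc
Gly 29 nt: GCATTGGTGGTTCAGTGGtagaattctcg
Gly 27 nt: GCATTGGTGGTTCAGTGGtagaattct
The opposite end of a tRNA is shown by the most abundant CCA tag that a rat gene covered. It matches the tRNA-Leu gene Trnal-aag1 on chromosome 1 from 184897149 to 184897230. RefSeq lists 21 rat tRNA-Leu genes with anticodon AAG, so this match does not assign the tag to that copy either. The capitals of the tag mark the CCA.
Leu 27 nt: tgggttcgaatcccaccgctgccaCCA

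The Gly tag of 32 nt was read in all 9 libraries, with 90, 87 and 9 reads for Control, 42, 11 and 2845 for LPS and 438, 538 and 596 for LPS+AS-IV. LPS 3 stood far above the rest. The tag 1 base shorter, of 31 nt, was not among the members, since the files give it to a piRNA, as described further on. The 30 nt tag was read 238 times in Control 3, 1186 times in LPS 3 and, for LPS+AS-IV 2 and 3, 692 and 1664 times, and nowhere else. The 29 nt tag was read 903 times in Control 3, 378 and 1576 times in LPS 1 and 3 and, for LPS+AS-IV 2 and 3, 590 times and 1 time. Tags that differ by 1 base at the end thus came and went between libraries. The 27 nt tag had 484 reads, all in LPS 3. Tags of 28 and 26 nt that match the same gene, not shown above, had 634 and 662 reads, all in LPS+AS-IV 3. The Leu tag was read in Control 1 with 64 reads and in Control 2 with 57, and in no other library. Where a library could list the tag, a count of 0 allows up to 3 reads, which was at most 0.00362% of its short tRNA reads. A count of 0 sets no such limit where the tag lay below the library's lowest Rfam score, described in the next paragraph. Intervals and such limits cover counting error only, since PCR copies of 1 molecule cannot be told from separate molecules.

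Each tRNA tag has an Rfam score, and the lowest score present differed between libraries. It was 13.8, 14.2 and 13 for Control, 13.4, 13.9 and 12.7 for LPS and 13.5, 12.9 and 11.6 for LPS+AS-IV. No tag had different scores in different libraries, so a tag below a library's lowest score was simply not in that library's file as a tRNA tag. The Gly tag of 30 nt scored 13.1 and was read in exactly the 4 libraries whose lowest score was at or below that. The Gly tag of 29 nt scored 13.4 and was likewise read in exactly the 5 libraries that reached that score. The Gly tag of 27 nt scored 13.2, below the lowest score of 5 libraries. Those of 28 and 26 nt scored 12.2 and 12.6, below the lowest score of all 8 libraries without them. The Gly tag of 32 nt scored 16.2, above all 9. The score did not decide every absence, since the Leu tag scored 19 and was read in 2 libraries. Of the 10 most abundant members, 5 scored below 14.2, the highest of the 9 lowest scores. Why the files stop at different scores is not stated in the labels. Values are therefore also given below with only the tags at or above 14.2, called the common floor. The shortest tags scored lowest, with a median of 14.05 at 22 nt, 14.5 at 24 nt and 15.7 at 32 nt. Tags of 15 to 19 nt did exist in other classes, 4243 tags with 294739 reads.

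**Figure D1:**
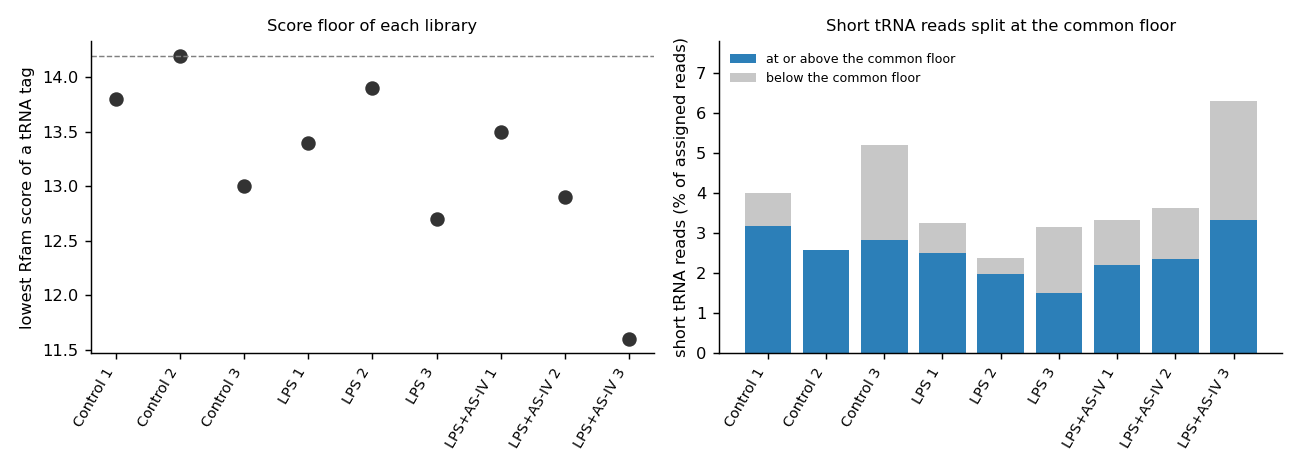
The left panel plots the lowest Rfam score of a tRNA tag in each library, with a dashed line at the common floor of 14.2. The right panel plots short tRNA reads as a percent of assigned reads, split at that floor, and the part below it reaches 52.1% of the short tRNA reads in LPS 3 and is 0 in Control 2.

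Below the common floor lay 26.1% of the member tags. They held 20.3%, 0% and 45.7% of the short tRNA reads in Control 1, 2 and 3. In LPS they held 22.6%, 16.5% and 52.1%, and in LPS+AS-IV 33.6%, 35.2% and 47.2%. The third library of each group thus had the most reads below the floor, and Control 2 had none, since its own lowest score set the floor.

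Assigned reads ran from 3484099 to 9527483 a library, and short tRNA reads from 82787 in LPS 2 to 428672 in Control 3. LPS 3 and LPS+AS-IV 3 stood apart from the other 7. tRNA reads of all lengths were 12.9% and 10.2% of their assigned reads, against 29.6% to 62.9% elsewhere. Reads labelled piRNA were 43.5% and 8.50% of their assigned reads, against 2.06% to 5.65% in the other 7. Some piRNA-labelled tags share a start with tRNA tags, as described further on, and they are not counted as tRNA here. The Cys and Pro starts described below, each at 5.33% or more of short tRNA reads elsewhere, held at most 0.0469% in LPS 3 and LPS+AS-IV 3. Reads of bacterial families (tmRNA and both subunits of ribosomal RNA) were present in every library. Bacterial large and small subunit ribosomal reads were 0.367 times the eukaryotic ones in LPS 3 and 0.507 times in LPS+AS-IV 3, against 1.10 to 2.73 times in the other 7. Myeloid miRNAs, the check on the labelled macrophages, held 0.718% to 7.19% of mature miRNA reads, with 5 of 6 detected over the pooled libraries. Of these 6, miR-146a-5p had the most reads in every library. No library had a read of miR-142-3p, and miR-223-3p had none in LPS 1, LPS 2 and LPS+AS-IV 1. Among all mature miRNA reads the erythroid miR-451-5p held 2.20% to 4.05% and the lymphocyte miR-150-5p 1.42% to 4.06%. The endothelial miR-126a-3p held 0.159% to 1.38%, the liver miR-122-5p 0.143% to 0.961%, and the 4 epithelial miRNAs together 0% to 0.137%. The part of other cells, of serum or of bacteria in the results below was not tested.

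Short fragments were the minor part of tRNA reads in 8 of the 9 libraries. They held 6.36%, 5.72% and 13.8% of tRNA reads for Control, 5.36%, 8.02% and 24.4% for LPS, and 6.47%, 8.49% and 61.6% for LPS+AS-IV. The 95% Wilson interval of the highest, in LPS+AS-IV 3, was 61.51 to 61.74. Most of the other tRNA reads were 34 or 35 nt long in 7 libraries, while 33 nt was the leading length of them in LPS 3, with 50.6% of tRNA reads, and in LPS+AS-IV 3, with 17.5%. In each group the third library was the highest and the other two lay close together, and the groups overlapped.

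The mean share was 8.64% ± 4.51 for Control, 12.6% ± 10.3 for LPS and 25.5% ± 31.3 for LPS+AS-IV (SD, n = 3 each). LPS minus Control was 3.94 percentage points (two-sided exact permutation p = 0.7), LPS+AS-IV minus LPS 12.9 (exact p = 0.6) and LPS+AS-IV minus Control 16.9 (exact p = 0.5). All differences were smaller than the spread of at least 1 group. Without LPS 3 the LPS difference from Control turned to -1.95, and without LPS+AS-IV 3 its differences turned to -5.10 from LPS and -1.16 from Control. Adjusted over the 12 tests of shares, the p of these 3 was 0.84. With 3 against 3 the smallest possible p is 0.1. At the common floor the shares were 5.16%, 5.72% and 8.10% for Control, 4.23%, 6.81% and 13.7% for LPS, and 4.43%, 5.72% and 49.9% for LPS+AS-IV. The third library was still the highest of each group, by less.

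A share of tRNA reads also moves with the longer tRNA fragments, so the short fragments were set against all assigned reads too. They held 3.998%, 2.59% and 5.22% for Control, 3.24%, 2.38% and 3.15% for LPS, and 3.33%, 3.63% and 6.31% for LPS+AS-IV. On this scale the libraries differed far less. Longer tRNA tags held 58.9%, 42.6% and 32.5% of assigned reads for Control, 57.2%, 27.3% and 9.78% for LPS, and 48.1%, 39.2% and 3.93% for LPS+AS-IV. The high share of tRNA reads in LPS+AS-IV 3 therefore went with few reads in longer tags assigned to tRNA there.

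Every LPS+AS-IV library lay above every LPS library in the share of assigned reads. The means were 3.93% ± 1.32 for Control, 2.92% ± 0.476 for LPS and 4.43% ± 1.64 for LPS+AS-IV (SD, n = 3 each). The difference of LPS+AS-IV from LPS was 1.502 points (exact permutation p = 0.1, the smallest possible, adjusted p = 0.84), and it was the 1 comparison of the 12 in which the groups did not overlap. Without LPS 3 and LPS+AS-IV 3 they still did not, since the lowest LPS+AS-IV library then had 3.33% and the highest LPS library 3.24%. LPS minus Control was -1.01 points (exact p = 0.3) and LPS+AS-IV minus Control 0.491 (exact p = 0.7). At the common floor the shares became 3.19%, 2.59% and 2.83% for Control, 2.51%, 1.98% and 1.51% for LPS, and 2.21%, 2.35% and 3.34% for LPS+AS-IV. There LPS+AS-IV overlapped LPS, and it was LPS and Control that did not overlap, with a difference of -0.868 points (exact p = 0.1). With tags of at most 30 nt both pairs were free of overlap, with -0.707 points for LPS minus Control and 1.21 for LPS+AS-IV minus LPS (exact p = 0.1 each). With each tag counted once neither was. Which groups separated thus changed with the scores and lengths admitted and with the weighting.

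**Figure D2:**
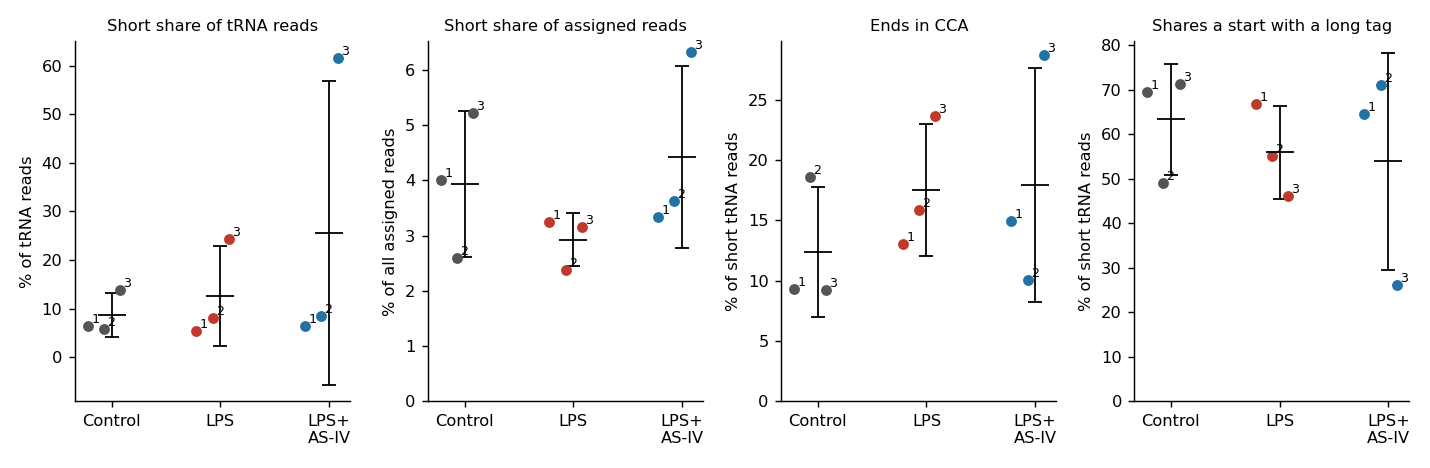
The 4 panels plot each library (numbered points) by group, with the group mean and SD as black bars. From left to right they give short tRNA reads as a percent of tRNA reads and of assigned reads, and then the percent of short tRNA reads that end in CCA and that share a start with a longer tag. The third LPS+AS-IV library is the highest in the first 3 panels (61.6%, 6.31% and 28.8%) and the lowest in the last (26.1%).

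Lengths rose towards the upper limit. Tags of 29 to 32 nt held 64.5% ± 2.99 of short tRNA reads for Control, 67.5% ± 11.8 for LPS and 65.9% ± 12.3 for LPS+AS-IV (SD, n = 3 each). Tags of 25 to 28 nt held 32.1% ± 3.36, 28.4% ± 11.1 and 27.7% ± 5.60 in the same order. Tags of 20 to 24 nt held 3.36% ± 0.402, 4.17% ± 1.61 and 6.41% ± 6.66, and in LPS+AS-IV 3, the library with the lowest score floor, they held 13.9%. At the common floor that value was 10.9% and remained the highest of the 9. The most common length was 32, 32 and 31 nt for Control, 32, 31 and 32 nt for LPS, and 31, 32 and 30 nt for LPS+AS-IV. At the common floor it was 32 nt in all 3 Control libraries, 32, 28 and 30 nt for LPS, and 32, 32 and 30 nt for LPS+AS-IV. A smaller peak at 28 nt, above both neighbouring lengths, held 15.9% of the reads in LPS 2 and 12.9% in Control 1. Most of these reads therefore lay next to the 33 nt boundary that separates them from the longer fragments, and LPS+AS-IV 3 had the shortest mean length, 28.2 nt.

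**Figure D3:**
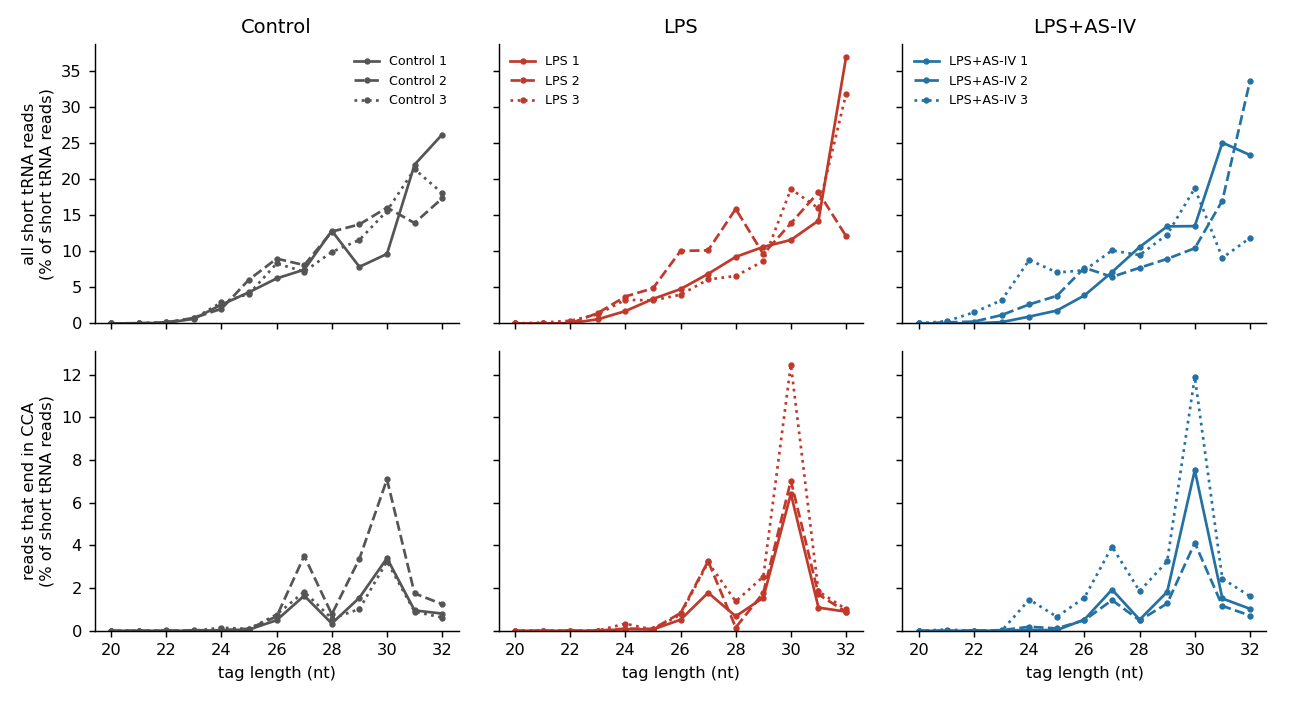
Each line is a library, with tag length in nt on the horizontal axis and the percent of short tRNA reads on the vertical axis. The upper row holds all short tRNA reads and is highest at 30 to 32 nt in every library. The lower row holds the tags that end in CCA and peaks at 30 nt in all 9, with a lower peak at 27 nt.

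Tags from the 5′ side held most short tRNA reads in 6 of the 9 libraries. A tag was counted as a 5′ tag when a tRNA tag of 33 nt or longer, with at least 100 reads over the 9 libraries, began with its whole sequence, and when it did not end in CCA. Such tags held 69.6%, 49.0% and 71.3% of short tRNA reads for Control, 66.8%, 55.1% and 46.0% for LPS, and 64.6%, 71.1% and 26.1% for LPS+AS-IV. LPS+AS-IV 3 was the lowest. At the common floor the shares were 65.3%, 49.0% and 61.0% for Control, 64.3%, 49.4% and 20.4% for LPS, and 54.97%, 67.5% and 23.8% for LPS+AS-IV, so that LPS 3 fell below LPS+AS-IV 3. With tags of at most 30 nt it was also lower, with 18.97% against 23.7%. LPS minus Control was -7.36 points (exact permutation p = 0.5, adjusted p = 0.84), LPS+AS-IV minus LPS -2.04 (exact p = 0.9, adjusted p = 0.982) and LPS+AS-IV minus Control -9.40 (exact p = 0.6, adjusted p = 0.84). Without LPS+AS-IV 3 its differences were 11.9 from LPS and 4.53 from Control. A further 18.9% to 45.2% of short tRNA reads was neither a 5′ tag nor ended in CCA.

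A CCA end was present on 4321 of the member tags. These held 9.28%, 18.6% and 9.20% of short tRNA reads for Control, 13.1%, 15.8% and 23.6% for LPS, and 14.95%, 10.04% and 28.8% for LPS+AS-IV. In every library the share was above that among longer tRNA tags, which was between 0.455% and 8.77%. LPS minus Control was 5.17 points (exact permutation p = 0.3, adjusted p = 0.84), LPS+AS-IV minus LPS 0.399 (exact p = 1, adjusted p = 1) and LPS+AS-IV minus Control 5.57 (exact p = 0.5, adjusted p = 0.84). The groups overlapped in each comparison. Without LPS+AS-IV 3 the difference from LPS was -5.02. At the common floor the share in LPS 3 was 38.3%, the highest of the 9.

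The most common length of the CCA tags was the same in every library. It was 30 nt in all 9 and held 35.3% to 52.8% of CCA reads. A lower peak at 27 nt held between 1.44% and 3.94% of all short tRNA reads. Both lengths reach from the 3′ end back through the T arm. The letters GTTCNA, typical of the T loop and searched on the strand as read, stood in 96.3% of CCA reads and in 3.15% of the other reads of 15 to 32 nt that were not tRNA. TAGCTCAG, common in the D arm, stood in 54.8% of the reads of 5′ tags, in 0.233% of CCA reads and in 0.833% of the reads of that length that were not tRNA. These matches describe the tags and are not binding sites.

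The most abundant CCA tag, of 30 nt, was read in all 9 libraries. It held 0.714%, 1.52% and 0.639% of short tRNA reads for Control, 1.90%, 2.66% and 3.27% for LPS, and 2.23%, 0.773% and 1.68% for LPS+AS-IV. All LPS libraries were above all Control libraries, while its counts gave an adjusted p of 1 in each comparison by edgeR's quasi-likelihood test. The next CCA tags, of 27, 30 and 30 nt, were also in all 9 libraries and held at most 0.888%, 0.938% and 0.829%. No rat gene used here covered these 4 tags, so their sequences are not given and the tRNA they come from was not established.

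A few starts led the 5′ tags, and they differed sharply between libraries. A shared start means the same 18 letters. The anticodon of a start was read from longer tags that began with it and formed an anticodon stem of 5 pairs around a loop of 7. The leading start was tRNA-Cys with anticodon GCA (855 of 859 such reads), followed by tRNA-Pro with CGG (45 of 45), tRNA-Ile with GAT (68 of 68), a start whose anticodon could not be read, and tRNA-His with GTG (234 of 235). The Cys start held 17.2%, 5.76% and 10.1% of short tRNA reads for Control, 26.3%, 5.33% and 0.00604% for LPS, and 8.88%, 23.8% and 0.0239% for LPS+AS-IV. It thus ranged widely inside each group and nearly vanished from LPS 3 and LPS+AS-IV 3.

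The Pro start held 16.9%, 6.47% and 13.1% for Control, 9.47%, 19.98% and 0.0469% for LPS, and 21.0%, 9.31% and 0.00591% for LPS+AS-IV. The start without a readable anticodon held 28.9% in LPS 3, 1.67% in LPS+AS-IV 3 and at most 3.92% in any other library. It held at most 0.0362% in Control 1, Control 2 and LPS 2. Their lowest Rfam scores lay above the scores of its tags of 32 and 31 nt named below, 13.5 and 12.9. The starts were not compared at the common floor. The His start held 10.97% in Control 3 and between 0.814% and 4.05% elsewhere. The 5 leading starts together held 44.3%, 14.1% and 44.8% for Control, 46.7%, 33.7% and 29.8% for LPS, and 43.6%, 47.7% and 2.80% for LPS+AS-IV. In LPS+AS-IV 3 the leading tag was a CCA tag with 1.68% of the reads, and 143 tags were needed to hold 50% of the short tRNA reads, against 15 to 81 in the other 8.

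**Figure D4:**
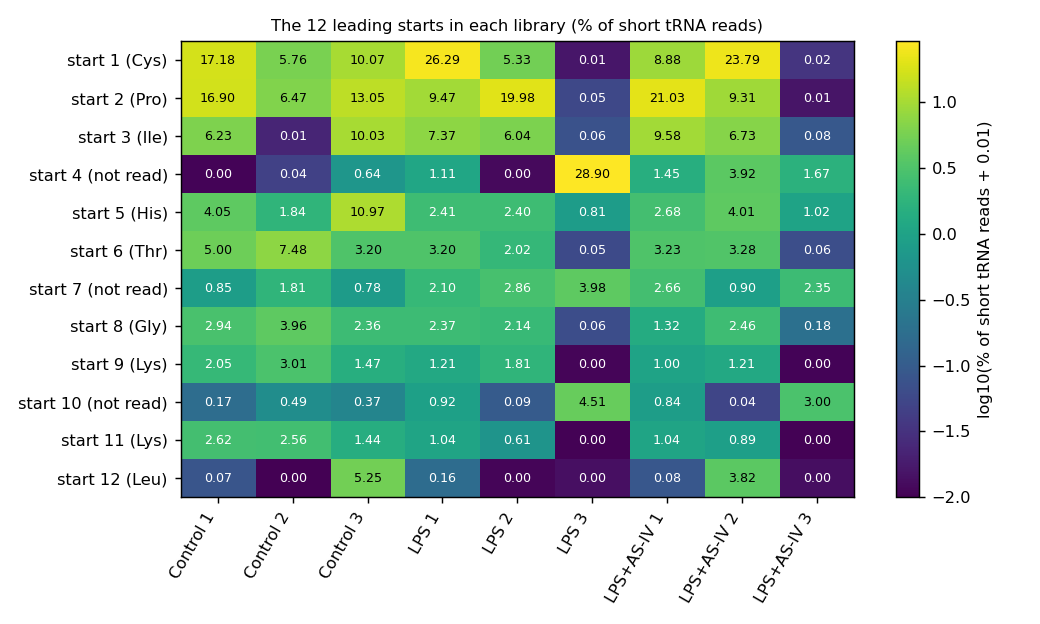
Each cell gives the percent of a library's short tRNA reads in 1 of the 12 leading starts, named by the amino acid of the anticodon where it could be read, and the colour follows log10 of that percent plus 0.01. The starts 1 to 3 (Cys, Pro, Ile) are below 0.1% in LPS 3 and LPS+AS-IV 3. Start 3 is also low in Control 2 (0.01%), and start 4 reaches 28.90% in LPS 3.

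The single tags followed their starts. The most abundant member, a Cys tag of 32 nt, held 16.7%, 5.72% and 9.86% of short tRNA reads for Control, 25.4%, 5.32% and 0.00568% for LPS, and 8.55%, 23.1% and 0.0236% for LPS+AS-IV. It led 4 libraries and was read in all 9. A Pro tag of 31 nt held 10.3% and 8.11% in Control 1 and 3, 4.87%, 10.7% and 0.0266% for LPS, and 13.1%, 4.24% and 0.00236% for LPS+AS-IV, and had no read in Control 2, whose lowest score of 14.2 was above its 14.1. The third, a tag of 32 nt from the start without a readable anticodon, held 21.1% of LPS 3 and at most 2.58% elsewhere. It scored 13.5 and was read in exactly the 6 libraries that reached down to that score. Among the others of the 10, an Ile tag of 28 nt held 5.25% of Control 1 and 6.03% of LPS 2, a Thr tag of 31 nt led Control 2 with 5.81%, and 2 tags that scored 13.2, a His tag of 30 nt and a Leu tag of 31 nt, held 7.27% and 5.13% of Control 3. These 4 tags stayed below 0.1% in both LPS 3 and LPS+AS-IV 3. The most abundant tag of 20 to 24 nt, named Gly with anticodon GCC from 1 longer read, was 24 nt long and had 382 to 1509 reads in Control, 546, 558 and 0 reads in LPS, and 447, 834 and 0 reads in LPS+AS-IV. The next, also of 24 nt, was highest where that tag was missing, with 1321 reads in LPS 3 and 3148 in LPS+AS-IV 3. The 10 most abundant members held 30.8% of the short tRNA reads on average over the libraries. In contrast, 80.3% of member tags were read in 1 library and 31 tags in all 9. Between 38.3% (LPS+AS-IV 2) and 63.8% (LPS+AS-IV 3) of the member tags of a library had only 1 read there. Such tags are easily missed in another library.

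Not all leading starts had an anticodon that the rat table holds, and a shared anticodon does not place a start on a rat gene. The Cys gene Trnac-gca15, covered whole, matched 1 member tag with 1 read, and not the leading Cys tag. The RefSeq gene table used here holds 766 rat tRNA genes with 51 anticodons and none on the mitochondrial chromosome. An anticodon that only mitochondrial tRNAs of the rat use therefore counts as unlisted. It has 38 genes for Cys with GCA, 4 for Pro with CGG and 10 for His with GTG. It has none for Ile with GAT, an anticodon that rat mitochondria and bacteria use, and none for Thr with GGT, one that bacteria use, which was read in 12 of 18 reads for the start of the leading tag of Control 2. Starts with an anticodon that no listed gene has held 14.0%, 12.8% and 15.6% of short tRNA reads for Control, 13.6%, 11.3% and 2.57% for LPS, and 15.8%, 12.4% and 5.48% for LPS+AS-IV. The anticodon could be read for 11.03% of the reads in LPS 3, 19.5% in LPS+AS-IV 3 and 45.8% to 69.1% in the other 7. Only reads with a readable anticodon could count as without a listed gene. The low shares of such starts in LPS 3 and LPS+AS-IV 3 therefore do not show that they were rarer among readable reads. Tags found in the rat gene stretches, or sharing a start with a tag that matched a rat piRNA without mismatch, held 3.74% in LPS 3 and 3.43% in LPS+AS-IV 3, and between 0.133% and 0.980% in the other 7. LPS 3 and LPS+AS-IV 3 thus had the highest rat-matched shares. Their lowest Rfam scores, 12.7 and 11.6, were also the lowest among the libraries, and the matches cover only 126 of the 19253 member tags. Whether this ranking holds at the common floor was not tested. Nuclear tRNAs are so alike among mammals that rat cells and bovine serum cannot be told apart by such a match. From which organism the other tags came was not tested, and their sequences are not shown.

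The files name some tRNA fragments as piRNAs, a class of small RNA that guides Piwi proteins in the germline. In the same length range, 343 tags labelled piRNA shared their 18-letter start with a tRNA tag, and none of them was assigned to tRNA in any library. A pair of abundant ones is shown because they are 5′ ends of common tRNAs that the members miss, and the capitals mark the shared start.
rno_piR_005901: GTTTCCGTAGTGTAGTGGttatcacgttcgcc
rno_piR_005567: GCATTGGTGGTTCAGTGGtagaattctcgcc
The start of rno_piR_005901 is that of animal tRNA-Val, by textbook sequence. The files give this tag 0 mismatches to its piRNA and the Gly tag 1. The tag under rno_piR_005567 is the missing Gly tag of 31 nt that matches Trnag-gcc2. It had 1213, 656 and 1053 reads for Control, 1477, 262 and 17054 for LPS, and 4978, 4705 and 3091 for LPS+AS-IV, more than the 32 nt Gly tag in every library.

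Together these piRNA-labelled tags held 0.839%, 1.26% and 1.06% of assigned reads for Control, 0.648%, 0.449% and 6.83% for LPS, and 1.41%, 1.64% and 1.31% for LPS+AS-IV. In LPS 3 they were 2.17 times as many as the short tRNA reads, and at most 0.488 times in the other 8. All LPS+AS-IV libraries lay above all Control libraries, a difference that was not tested. The Val tag of 32 nt under rno_piR_005901 alone gave 120096 reads in LPS 3 and between 2229 and 22000 elsewhere. Counted with the members, they raised the short share of assigned reads to 9.98% in LPS 3, and LPS minus Control changed sign to 0.579 points. LPS+AS-IV then overlapped LPS, with a difference of 0.314 points (exact permutation p = 0.9). In LPS 3 the share of tRNA reads became 50.5% and the CCA share 7.46%. Only piRNA-labelled tags of at most 32 nt were added, both to the short and to all tRNA reads. Longer piRNA-labelled tags were not added, so the 50.5% leaves out any tRNA fragments among them. piRNA-labelled reads of all lengths and starts held 43.5% of assigned reads in LPS 3.

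**Figure D5:**
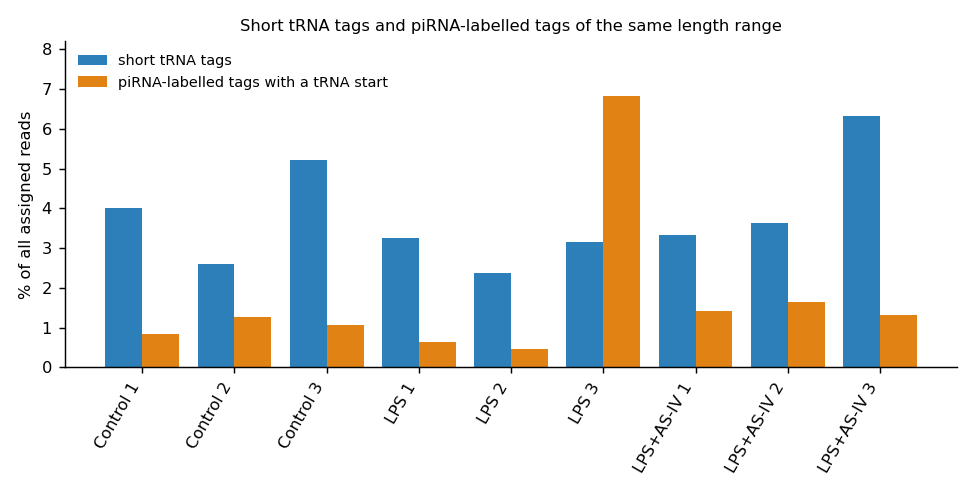
For each library the blue bar gives the short tRNA tags and the orange bar the piRNA-labelled tags of the same length range that share a tRNA start, both as a percent of assigned reads. In LPS 3 the orange bar (6.83%) exceeds the blue one (3.15%), and in the other 8 libraries it is the lower of the pair.

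Tested tag by tag, edgeR called no short tRNA tag between groups. Its quasi-likelihood test (edgeR) was fitted on 17733 tags of all classes, and 979 members passed its filter on low counts. At an adjusted p below 0.05 it called 0 members in each of the 3 comparisons, as it called 0% of all tags tested. At an unadjusted p below 0.05, 67 of 979 members passed in LPS against Control, 16 of them higher and 51 lower, beside 6.33% of all tags. In LPS+AS-IV against LPS 76 passed, 35 higher and 41 lower, beside 8.68%. In LPS+AS-IV against Control 90 passed, 16 higher and 74 lower, beside 8.67%. These shares of the members, 6.84%, 7.76% and 9.19%, were near those of all tags. Without LPS+AS-IV 3 edgeR called 2 of 1771 members in LPS against Control, beside 0.0244% of all 32811 tags tested, 0 in LPS+AS-IV against LPS, beside 0%, and 1 in LPS+AS-IV against Control, beside 0.00305%. The spread between libraries was large, with a common biological coefficient of variation of 2.43.

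DESeq2 shares are given here among the tags with an adjusted p. In LPS against Control it called 6 of 464 members (1.29%, 4 higher, 2 lower) beside 0.546% of all tags. For LPS+AS-IV against LPS it called 1 of 536 (0.187%, higher) beside 0.367%. For LPS+AS-IV against Control it called 7 of 563 (1.24%, 4 higher, 3 lower) beside 0.552%. These were 9 distinct tags, 8 of them read in at most 5 libraries, and 3 scored below the common floor. The 1 tag of LPS+AS-IV against LPS, of 24 nt and named after its values were seen, had 1172 reads in LPS+AS-IV 3, 37 and 128 in Control 1 and 3, and none in the other 6 libraries.

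The members with the smallest p by edgeR were tags present in some libraries only. A tag of 31 nt from the start without a readable anticodon was absent from Control and had 17312 reads in LPS 3, with 3981 and 1203 more in LPS+AS-IV 2 and 3 (edgeR adjusted p = 0.529 in LPS against Control). It scored 12.9, and the lowest score of the 6 libraries without it was higher. An Asp tag of 31 nt (anticodon GTC in 6 of 6 reads) gave 463 and 400 reads for Control 1 and 2, 238 and 80 for LPS+AS-IV 1 and 2, and none in LPS (edgeR adjusted p = 0.529). A Gly tag of 27 nt (anticodon TCC in 12 of 12 reads) had 227, 12 and 366 reads for Control, none for LPS, and 72, 133 and 1 for LPS+AS-IV (edgeR adjusted p = 0.529). These Asp and Gly tags scored 15.7 and 15, above the common floor.

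In LPS+AS-IV against LPS the 3 smallest p-values belonged to tags with no read in LPS+AS-IV. One of 24 nt gave 449, 48 and 352 reads for Control and 86, 0 and 198 for LPS (edgeR adjusted p = 0.371). One of 30 nt gave 66, 48 and 99 for Control and 0, 1 and 782 for LPS (edgeR adjusted p = 0.371), and another of 30 nt gave 206, 82 and 135 for Control and 274, 1 and 0 for LPS (edgeR adjusted p = 0.371). Against Control, a 31 nt tag with 219, 160 and 121 reads for Control and 77, 114 and 0 for LPS also had none in LPS+AS-IV (edgeR adjusted p = 0.464). No fold is given for tags with a group at 0, since a fitted one depends on the prior count. The tRNA of selenocysteine, tRNA-Sec, gave 277 tags with 9732 reads, of which 5179 were in LPS+AS-IV 3. Its most abundant short tag, of 25 nt, had 816 reads in LPS+AS-IV 3 alone and scored 13.2, below the lowest score of 5 libraries.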

How the data were processed

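The deposited files of single libraries hold, per the file headers, the count of each tag, its assignment and a score (Rfam score, or mismatches for miRNA and piRNA). The submitters' processing notes name Bowtie2 and Rnor_6.0 without a role; no label or header describes adapter trimming or the Rfam search. Counts were used as deposited. Shares were compared with two-sided exact permutation tests (12 tests, Benjamini-Hochberg). Tags of all classes with at least 10 reads were tested with edgeR 4.0.16 (R 4.3.3, TMM, filterByExpr, quasi-likelihood, 1 fit over 9 libraries) and, as an alternative, DESeq2 1.42.0. The edgeR code was tested on simulated counts with a spread far below that of the data. That test therefore does not show which changes could be found at the spread of these libraries. Tags named were the 10 most abundant, the top tag of each library, 2 per length class, 4 with CCA, 1 of tRNA-Sec and the 3 of smallest p per comparison. Members and lists were chosen with earlier results of these data known. The common score floor, the piRNA-labelled addition and the omission of LPS 3 and LPS+AS-IV 3 were chosen after the data were seen. RefSeq sequences are from GRCr8, not the authors' build, and served only to match tags and to place 2 genes. The miRNA table was not used. Another abundant piRNA-labelled tag is not reported here.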

Additional observations from a re-analysis of the deposited data

Results flagged for a closer look

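Tags that the files label piRNA but that share their first 18 letters with a tRNA tag lie outside the tRNA assignment. Their share of assigned reads was 6.83% in LPS 3, and 1.41%, 1.64% and 1.31% in replicates 1, 2 and 3 of LPS+AS-IV. Each of these was above the highest Control library, which had 1.26%. LPS 1 and LPS 2 were not, with 0.648% and 0.449%.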

How the results depend on the processing

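With 3 libraries a group no share could pass the threshold under any alternative. Of the 12 differences these changed sign (in percentage points). Without LPS 3 and LPS+AS-IV 3, short tRNA reads as a share of tRNA reads came to -1.95 in LPS against Control and -1.16 in LPS+AS-IV against Control, their share of assigned reads to -0.454 in LPS+AS-IV against Control, the CCA share to -1.96 in LPS+AS-IV against LPS, and the 5′ share to 6.93 in LPS+AS-IV against LPS and 4.53 in LPS+AS-IV against Control. At the common score floor, the share of assigned reads came to -0.235 in LPS+AS-IV against Control, and in LPS+AS-IV against LPS the CCA share to -2.55 and the 5′ share to 4.07. With a limit of 30 nt these CCA and 5′ differences were -3.23 and 4.24. The CCA share came to -0.0708 in LPS against Control with each tag counted once and to -0.0383 in LPS+AS-IV against LPS with 1 class per tag. With the piRNA-labelled tags the share of assigned reads came to 0.579 in LPS against Control. The cause of these changes was not tested.

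With 1 library left out at a time, the share of tRNA reads ran from -1.95 to 7.56 in LPS against Control, from -5.10 to 22.5 in LPS+AS-IV against LPS and from -1.16 to 26.4 in LPS+AS-IV against Control. The share of assigned reads ran from -1.68 to -0.370, from 0.558 to 2.05 and from -0.454 to 1.13 in the same order. The CCA share ran from 2.11 to 8.28, from -5.02 to 4.34 and from 0.146 to 9.50, and the 5′ share from -14.5 to -2.41, from -10.6 to 11.9 and from -17.97 to 4.53. Beside LPS 3 and LPS+AS-IV 3, a sign changed without Control 2 (-0.183 in the share of assigned reads, LPS+AS-IV against Control), without LPS 1 (-1.82 in the CCA share and 3.36 in the 5′ share, LPS+AS-IV against LPS) and without LPS 2 (-0.438 in the CCA share, LPS+AS-IV against LPS). edgeR called 0 to 2 members in LPS against Control, 0 in LPS+AS-IV against LPS and 0 to 1 in LPS+AS-IV against Control; both calls came without LPS+AS-IV 3. They were the 31 nt tag with 17312 reads in LPS 3 (called in both comparisons) and a Leu tag of 31 nt, both below the common floor. DESeq2 called 6, 1 and 7.

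Libraries that share a replicate number are not stated to be paired. Correlations of their deviations from the group means ran from -0.0903 to 0.283, against -0.224 to 0.106 for different numbers. The 3 highest were of libraries with the same number, but not every such pair was over 0.1, so the numbers were not taken to pair the libraries. With the replicate block the differences were the same, no share came below an exact p of 0.25, the smallest that 3 pairs allow, and edgeR called 0 members. The other edgeR alternatives also called 0.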
